A study of Mus musculus with 4 samples.

Results

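SOX3 binding was described at 6 long noncoding RNA genes with known roles in neural cells or in the nucleus, Rmst, Sox2ot, Miat, Meg3, Malat1 and Neat1, of 3845 long noncoding RNA genes in the GENCODE vM1 annotation of the mouse genome (mm9). The genes were chosen by name, with earlier results of these data known. Every peak that overlapped the gene body or the 50 kb to either side of it was taken. The study immunoprecipitated SOX3-bound chromatin from neural progenitor (NP) cells, which had been derived from R1 mouse embryonic stem cells by 4 days of culture in N2B27, a serum-free medium. No line with altered SOX3 was included. The data were 3 lists of peaks, 1 for each of 3 biological replicates, called by the authors against input chromatin of the same kind of cell. All replicates were of this 1 condition and 1 parental cell line, so binding was compared between genes and not between treatments.

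SOX3 belongs to the SOXB1 group of transcription factors, which bind short AT-rich DNA words through an HMG box and keep neural progenitors from differentiating. Long noncoding RNAs are transcripts without a long open reading frame, and many of them act in the nucleus. Rmst RNA is known to bind the related factor SOX2 during neurogenesis. Sox2ot is transcribed across Sox2, which lies within one of its introns. Miat, also called Gomafu, makes a nuclear RNA of neurons and retina. Meg3 is a maternally expressed gene of the imprinted Dlk1-Dio3 cluster. Malat1 makes an abundant RNA of nuclear speckles, and the neighbouring Neat1 makes the RNA on which paraspeckles are built.

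Each peak carries a MACS score, 10 times the negative log10 of its p-value, and the lowest score in the lists was 50. Scores depend on sequencing depth, which is unknown here. Each score is therefore given with its percentile, the share of peaks in the same list with an equal or lower score. Where peaks of all 3 replicates overlapped by 1 bp or more, the shared stretch was called a common site. The lists of replicates 1, 2 and 3 held 18816, 8096 and 40543 peaks, which met in 5537 common sites. The study also kept only peaks of all 3 replicates but reported more binding sites than this, a difference not resolved here. Replicates 2 and 3 stood closer to each other than to replicate 1. Of their overlapping peaks in the windows of the 6 genes, 5 of 14 pairs began at the same base, against 0 of 10 pairs for replicates 1 and 2 and 0 of 15 for replicates 1 and 3. Over the whole lists, 34.5% of the overlapping pairs of replicates 2 and 3 shared their start and 13.2% both ends, against shared starts in 0.922% for replicates 1 and 2 and 1.63% for replicates 1 and 3. The cause was not tested, nor was how far the lists of replicates 2 and 3 are independent of each other, which bears on every common site. Results that rest on a pair of replicates are marked as such.

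The windows of the 6 genes covered 1257.85 kb and held 84 peaks, of which replicates 1, 2 and 3 gave 29, 15 and 40. Merging overlapping peaks gave 55 regions. Of these, 9 (16.4%) held peaks of all 3 replicates, against 10.5% of the 51271 regions of the genome. Another 6 (10.9%, genome 4.95%) held replicates 1 and 3, and 4 (7.27%, genome 4.59%) held replicates 2 and 3. The remaining 36 regions (65.5%, genome 79.8%) came from a single replicate. They had a median score of 65.805 over 14 peaks of replicate 1, where the whole list had 77.395, and of 59.98 over 21 peaks of replicate 3, where the whole list had 63.64, and a score of 57.59 for the only one of replicate 2. The 9 regions with all replicates gave 10 common sites, since a region beyond the 3′ end of Rmst held a pair of replicate 2 peaks. Sox2ot had 4 common sites, Rmst 3, Malat1 2 and Miat 1. Neat1 had none of its own, and its window reached both Malat1 sites. Meg3 had none.

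**Figure D1:**
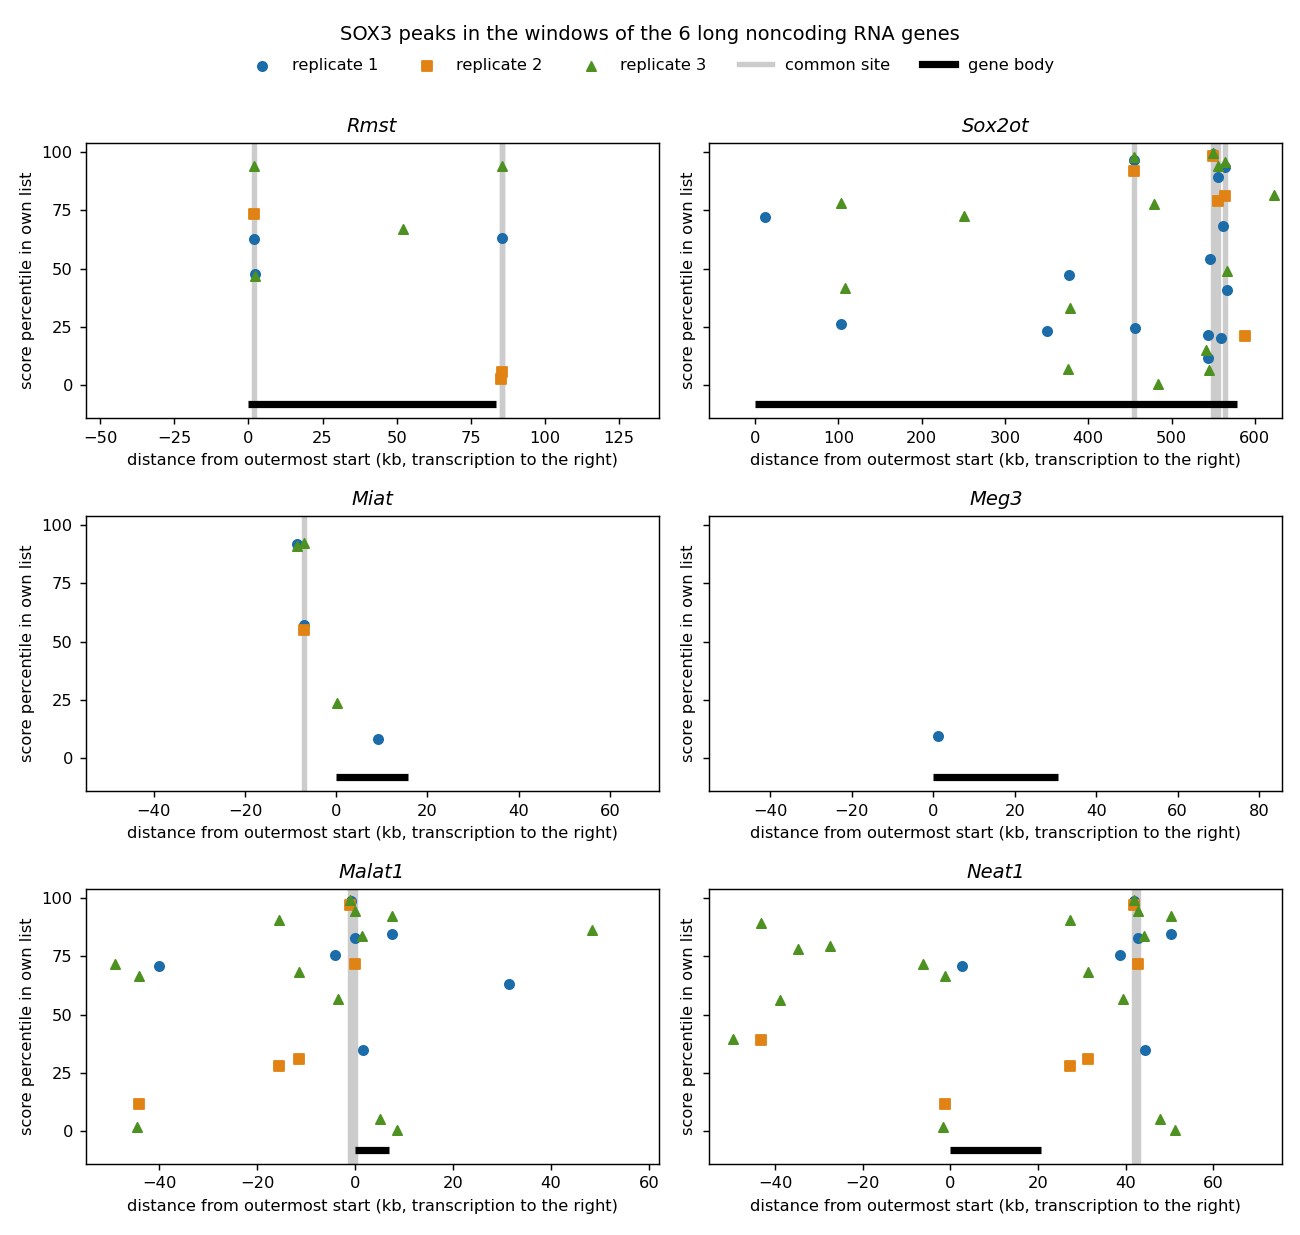
Peaks of each replicate in the 6 windows, by distance of their middle from the outermost annotated start of the gene (x axis, kb) and by score percentile in the list of their replicate (y axis). Points are peaks, grey lines are common sites and black bars are gene bodies. Sox2ot has its highest peaks in the 3′ part of the gene and Malat1 at its start, but Malat1 also has high peaks past its 3′ end and upstream. Meg3 has a single low peak.

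The sequences that the results turn on are given as the plus strand of mm9, at most the middle 300 bases of a site. Capitals mark exact matches on either strand to words bound by SOX proteins, ACAAWR, AACAAW and GACAAW, where W is A or T and R is A or G. The first 4 are the sites of Rmst, Sox2ot, Miat and Malat1 with the highest score percentile in their weakest replicate. The other 3 were picked after their values were seen, since they lie at a start of Sox2ot, Malat1 or Neat1. The coordinates are chr10:91625978-91626225 for Rmst site 3, chr3:34552825-34553124 for Sox2ot site 2, chr5:112664970-112665182 for Miat site 1, chr19:5803483-5803782 for Malat1 site 2, chr3:34458063-34458362 for Sox2ot site 1, chr19:5802525-5802824 for Malat1 site 1 and chr19:5846563-5846755 for the Neat1 peak, which was called in replicates 2 and 3 only.
Rmst site 3, near the start: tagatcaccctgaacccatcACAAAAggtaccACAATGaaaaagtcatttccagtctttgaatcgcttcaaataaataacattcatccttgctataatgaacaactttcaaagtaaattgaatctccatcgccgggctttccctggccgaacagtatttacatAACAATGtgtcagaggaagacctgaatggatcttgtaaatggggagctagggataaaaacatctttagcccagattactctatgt
Sox2ot site 2, intron downstream of Sox2: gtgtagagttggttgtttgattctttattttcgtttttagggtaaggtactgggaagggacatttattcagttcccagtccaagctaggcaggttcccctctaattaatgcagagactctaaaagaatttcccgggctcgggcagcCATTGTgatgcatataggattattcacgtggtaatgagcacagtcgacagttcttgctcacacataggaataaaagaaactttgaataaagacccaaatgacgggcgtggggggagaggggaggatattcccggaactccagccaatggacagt
Miat site 1, upstream: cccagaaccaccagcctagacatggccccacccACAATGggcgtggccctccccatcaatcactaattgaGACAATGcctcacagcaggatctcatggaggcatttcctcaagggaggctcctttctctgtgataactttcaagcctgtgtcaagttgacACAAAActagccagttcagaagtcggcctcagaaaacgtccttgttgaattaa
Malat1 site 2, upstream of the start: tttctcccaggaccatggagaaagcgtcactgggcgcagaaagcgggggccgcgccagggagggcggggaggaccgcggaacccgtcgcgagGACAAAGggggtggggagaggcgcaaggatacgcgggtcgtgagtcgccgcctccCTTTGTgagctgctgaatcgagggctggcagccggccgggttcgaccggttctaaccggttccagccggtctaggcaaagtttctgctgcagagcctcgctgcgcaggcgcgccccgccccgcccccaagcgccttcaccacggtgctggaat
Sox2ot site 1, upstream of an internal start: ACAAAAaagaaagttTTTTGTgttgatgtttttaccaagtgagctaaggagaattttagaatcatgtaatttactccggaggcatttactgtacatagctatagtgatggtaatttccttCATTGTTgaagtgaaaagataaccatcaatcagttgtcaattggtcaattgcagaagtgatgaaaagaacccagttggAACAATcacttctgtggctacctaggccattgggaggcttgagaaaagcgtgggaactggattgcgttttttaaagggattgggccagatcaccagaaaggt
Malat1 site 1, over the start: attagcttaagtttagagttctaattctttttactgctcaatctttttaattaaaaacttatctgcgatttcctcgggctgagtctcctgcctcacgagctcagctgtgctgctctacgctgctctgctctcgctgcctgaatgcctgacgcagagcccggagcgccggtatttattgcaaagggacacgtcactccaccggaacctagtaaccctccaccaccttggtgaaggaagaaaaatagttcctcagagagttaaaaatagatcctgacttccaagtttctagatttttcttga
Neat1 peak, upstream of the start: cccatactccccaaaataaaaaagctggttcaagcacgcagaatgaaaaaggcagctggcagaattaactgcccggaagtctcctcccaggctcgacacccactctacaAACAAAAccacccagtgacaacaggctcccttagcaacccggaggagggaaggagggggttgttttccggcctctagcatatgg

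Sox2ot (ENSMUSG00000090828.2, chr3:34003360-34581541, plus strand) is 578182 bp long, and only 1 long noncoding RNA gene of the annotation is longer. Its 16 transcripts have 16 annotated starts. All 4 of its common sites lay in the 3′ part of the gene, and none lay within 50 kb of its outermost start, which was 454852 bp from the nearest site. Sox2ot site 2 was the strongest of the 10 common sites, with scores of 1003.65, 607.55 and 1030.94 in replicates 1, 2 and 3. These were the 165th, 144th and 182nd highest scores of their lists, at percentiles 99.1, 98.2 and 99.6. The weakest replicate of this site stood higher than that of 97.5% of all common sites. The site (chr3:34552781-34553167) was intronic in Sox2ot and centred 3916 bp downstream of the Sox2 start. It held a single SOX word, ACAATG on the minus strand (bases 34552971 to 34552976). One base further on the plus strand followed ATGCATAT, a word close to the POU octamer ATGCWAAT but not an exact match to it. This word was noticed in the printed sequence and then counted. It was present in 39 of 5536 common sites (0.704%), and the same arrangement with CATTGT in 3 of them.

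The other intronic sites lay farther downstream of Sox2. Sox2ot site 3 (chr3:34558761-34559059) scored 255.92, 153.47 and 216.46, at percentiles 89.5, 78.9 and 94.1, and its middle was 9852 bp from the Sox2 start. Sox2ot site 4 (chr3:34567339-34567687) scored 352.22, 165.12 and 272.58, at percentiles 93.6, 81.0 and 95.8, and its middle was 18455 bp from that start. Site 4 held none of the SOX words, and site 3 held an AACAAT and a GACAAA. Sites 2, 3 and 4 were also within 50 kb of Sox2 itself, a SOXB1 gene expressed in NP cells. Binding there belongs to the windows of both genes, and the lists do not tell which gene it acts on.

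Sox2ot site 1 (chr3:34458006-34458418) stood apart from that group, 90715 bp upstream of the Sox2 start. It scored 539.42, 291.61 and 452.74, at percentiles 96.8, 92.0 and 97.9. Its middle was 1038 bp upstream of the start of transcript Sox2ot-010, the first of 4 starts that lie close together, and it was in intron 3 of longer transcripts. Printed above, it held 2 copies of AACAAT in opposite orientation. This was the only common site within 2000 bp of any of the 16 starts.

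**Figure D2:**
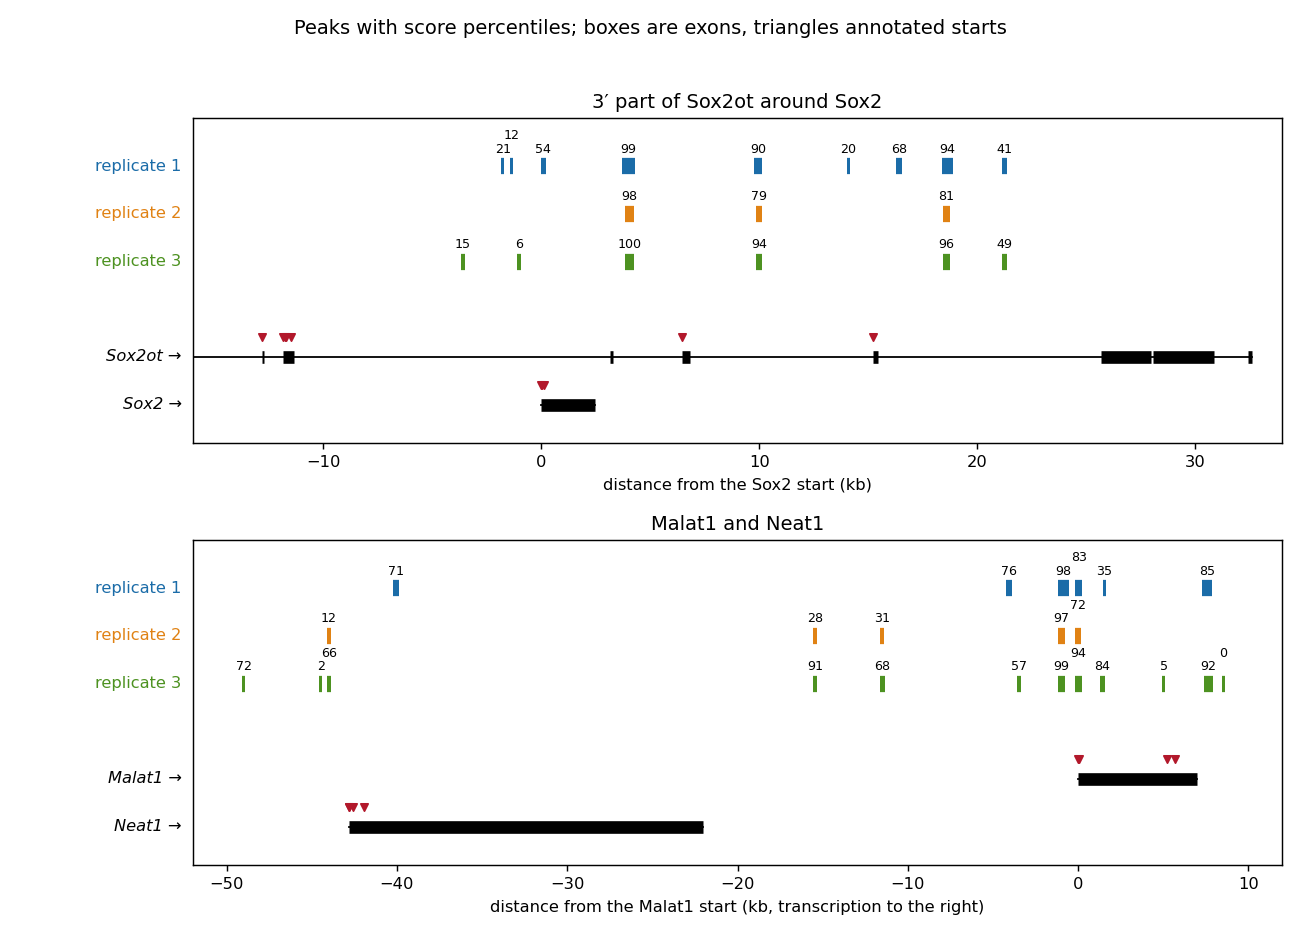
Peaks of each replicate around Sox2 (upper panel, kb from the Sox2 start) and around Malat1 and Neat1 (lower panel, kb from the Malat1 start). Coloured marks are peaks to scale with their score percentiles above, black boxes are exons of all transcripts, and triangles are annotated starts. The replicates coincide at 3 places downstream of Sox2 and at the start of Malat1, and at no place over Neat1.

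A further 21 regions in the Sox2ot window were found in 1 or 2 replicates, 19 of them in the gene body. Of those in the gene body, the 5 that ranked highest in a list were taken singly. A replicate 1 peak in an intron, 11465 bp from a start, scored 126.38. Another replicate 1 peak, 1165 bp inside the start of Sox2ot-004, scored 114.49. One more (chr3:34548909-34549120, score 83.2) covered the start of Sox2. A region with replicates 1 and 3 scored 58.54 and 92.79. The fifth, a replicate 3 peak with a score of 91.87, lay wholly in sequence that occurs in more than 1 place of the genome, where the origin of reads is uncertain. Peaks of a single replicate were thus found around Sox2 beside the sites of all 3 replicates, at lower scores than those. Without replicate 2, Sox2ot had 6 sites.

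Rmst (ENSMUSG00000086180.1, chr10:91544491-91627923, minus strand) is 83433 bp long and has 2 transcripts. Its window held no protein-coding gene, and the nearest protein-coding start to any of its sites was that of Nedd1, at 559064 bp or more. Rmst site 3 (chr10:91625978-91626225) lay 1813.5 bp inside the gene from the nearest start, in exon 2 of Rmst-201 and in intron 2 of Rmst-202. It scored 100.11, 131.34 and 214.01, at percentiles 62.8, 73.6 and 94.0, and its weakest replicate stood higher than that of 52.4% of all common sites. The site held ACAAWR at 3 places, at 1 of them within AACAAT. It was also within Gm17341, a long noncoding RNA gene on the opposite strand (chr10:91624848-91627435), whose start was 1253.5 bp away. The binding can therefore not be assigned to one of these transcripts. A region beside it, 2284 bp inside the start, had low scores in replicate 1 (74.34) and replicate 3 (62.02) and none in replicate 2. The only other region in the gene body was a replicate 3 peak in an intron (chr10:91575697-91575888), with a score of 76.23 at percentile 67.2.

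The remaining Rmst sites lay beyond the 3′ end of the gene, at 2192 and 1983.5 bp from it (chr10:91542273-91542325 and chr10:91542467-91542548). They were narrow, 53 and 82 bp, and shared 1 peak of replicate 1 (score 101.43, percentile 63.3) and 1 peak of replicate 3 (215.48, percentile 94.1). Replicate 2 gave them a pair of peaks just past the calling threshold, with scores of 51.61 and 50.69 at percentiles 5.6 and 2.9. Neither site held any of the SOX words within its own bases. With a p-value of 1e-10 or less required in each list, both were lost and Rmst kept 1 site.

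Malat1 (ENSMUSG00000092341.1, chr19:5795690-5802671, minus strand) is 6982 bp long, and both of its common sites were at its start. Malat1 site 2 (chr19:5803421-5803844) was centred 961.5 bp upstream and was the second strongest of the 10. It scored 775.38, 485.98 and 693.04, at percentiles 98.5, 97.0 and 98.9. Its GC content was 65.6%, the highest among the sites of these genes, where the median was 48.3%. It held ACAAAG once on each strand, 1 of them as GACAAA. Malat1 site 1 (chr19:5802516-5802832) covered the outermost start, with its middle 3 bp from it. It scored 180.69, 124.33 and 222.53, at percentiles 82.6, 71.7 and 94.4, and held none of the SOX words.

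Replicates 1 and 3, without replicate 2, also had a pair of regions in or beside the Malat1 body. One was centred 600 bp past the 3′ end (chr19:5794767-5795413), with scores of 198.14 and 179.83 at percentiles 84.7 and 92.3. The other lay 1428.5 bp inside the nearest start, with scores of 62.63 and 107.7. A replicate 3 peak near the start of a short transcript scored 50.8. Binding at Malat1 was thus seen at the start in all replicates and near the 3′ end in a pair of them. Without replicate 2, the window held 4 sites common to the other replicates.

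Neat1 (ENSMUSG00000092274.1, chr19:5824708-5845478, minus strand) lies 22036 bp from Malat1, and 14 regions fell in the windows of both genes. The common site nearest to any of its starts was Malat1 site 2, 41000.5 bp away. At its start, a region 1181 bp upstream (chr19:5846563-5846755) was called in replicate 2 with a score of 53.64 (percentile 11.5) and in replicate 3 with 75.32 (percentile 66.5). It held 1 AACAAA. Replicate 1 instead had a peak in the gene body, 1919.5 bp inside the nearest start, with a score of 121.73 (percentile 70.6). Another region near the start was a replicate 3 peak with a score of 50.19. Replicates 2 and 3 shared 3 more regions in this window, all outside the body, of which 2 had a mostly multi-copy replicate 2 peak (50.5% and 54.9% of its 50-base sequences occurred in more than 1 place). The 4 regions of replicates 2 and 3 in the windows of the 6 genes were all in the Neat1 window, and these are the replicates that share peak ends. Without replicate 1, the Neat1 window would hold 6 sites common to the other replicates and the Malat1 window 5, of which 2 and 1 have such a mostly multi-copy peak.

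Miat (ENSMUSG00000086878.2, chr5:112642248-112657968, minus strand) is 15721 bp long and has 1 transcript. Its common site (chr5:112664970-112665182) was 7108 bp upstream of the start and 15106 bp from the start of Cryba4, a lens crystallin gene. It scored 88.58, 88.52 and 176.08, at percentiles 57.3, 54.8 and 92.1. It held ACAAWR at 3 places, at 1 of them within GACAAT. With a p-value of 1e-10 or less required, Miat had no common site. A nearby region 8546.5 bp upstream (chr5:112666304-112666725) was not called in replicate 2 but scored 302.14 and 160.2 in replicates 1 and 3, at percentiles 91.8 and 91.1. The replicate 1 score there was thus above that of the common site. Without replicate 2, Miat had 2 sites. Within the gene, a replicate 1 peak in an exon scored 52.57, and a replicate 3 peak 243 bp inside the start scored 54.52.

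Meg3 (ENSMUSG00000021268.10, chr12:110779211-110809936, plus strand) is 30726 bp long and has 10 annotated starts. Its window held 1 peak, of replicate 1 only, 112 bp inside one of those starts (chr12:110780265-110780425). Its score was 52.8, at percentile 9.5, and it held no SOX word. SOX3 binding at Meg3 was therefore not detected in more than 1 replicate at the threshold of the lists. Rian and Mirg, noncoding genes of the same imprinted cluster, had no common site in their windows either. The same held for 2776 of the 3845 long noncoding RNA genes, and Rian lies partly in the Meg3 window.

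**Figure D3:**
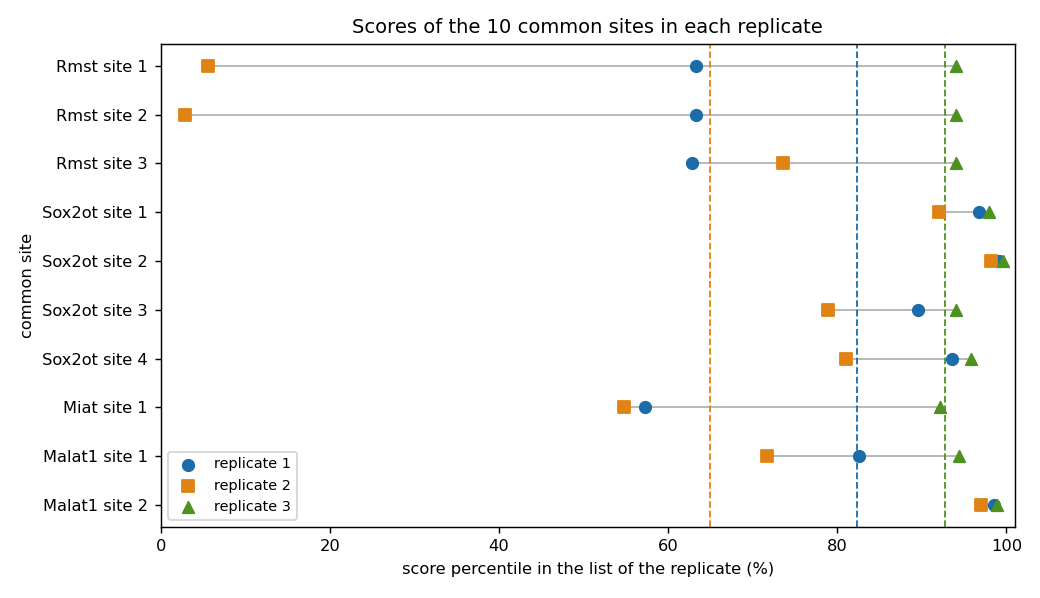
Score percentile (x axis) of the 10 common sites in each replicate, with points for replicates and dashed lines for the median percentile of all 5537 common sites in the list of the same colour. Sox2ot site 2 and Malat1 site 2 lie at 97.0 or above in every replicate, and the sites beyond the 3′ end of Rmst lie at 5.6 and 2.9 in replicate 2.

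The 10 sites differed most in replicate 2, which had the lowest percentile at 9 of them and at 79.4% of all common sites. Replicate 3 had the highest percentile at all 10 and at 84.6% of all common sites. The unlike lengths of the lists bear on this order. Sox2ot site 2 had both its best rank, 144th, and its lowest percentile, 98.2, in replicate 2. At 7 sites, all 3 scores were 100 or more, as at 49.1% of all common sites, and the 3 others were those of Miat and of the 3′ end of Rmst. The median score of the 10 sites was 218.305, 142.405 and 219.495 in replicates 1, 2 and 3, against 178.54, 107.71 and 188.95 over all common sites. Their median width was 308 bp, against 260 bp. None of the peaks at the 10 sites was mostly multi-copy.

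By position, 4 of the 10 sites were within 2000 bp of a start of the gene, 3 were intronic, 1 was upstream and 2 were downstream. All 10 were nearer to a long noncoding RNA start than to a protein-coding start, as were 12.8% of all common sites. The genes were chosen as long noncoding, which favours this. For 7 sites the nearest such start was that of the gene itself, and for the 3 Rmst sites it was that of Gm17341.

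A common site was present in the windows of 5 of the 6 genes, against 27.8% of the 3845 long noncoding RNA genes and 28.7% of the 22367 protein-coding genes with windows made in the same way. The comparison is affected by length, since 45.5% of the 134 long noncoding RNA genes of 100 kb or more had one, and by Malat1 and Neat1 sharing theirs. A site within 2000 bp of a start was present for 3 of the 6 genes, Rmst, Sox2ot and Malat1, against 3.56% of long noncoding RNA genes and 4.80% of protein-coding genes. Genes with many annotated starts, such as Sox2ot, have more chances of such a site. A peak of any replicate was found in all 6 windows, but also in 87.2% of those of long noncoding RNA genes, so it did not set the genes apart.

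**Figure D4:**
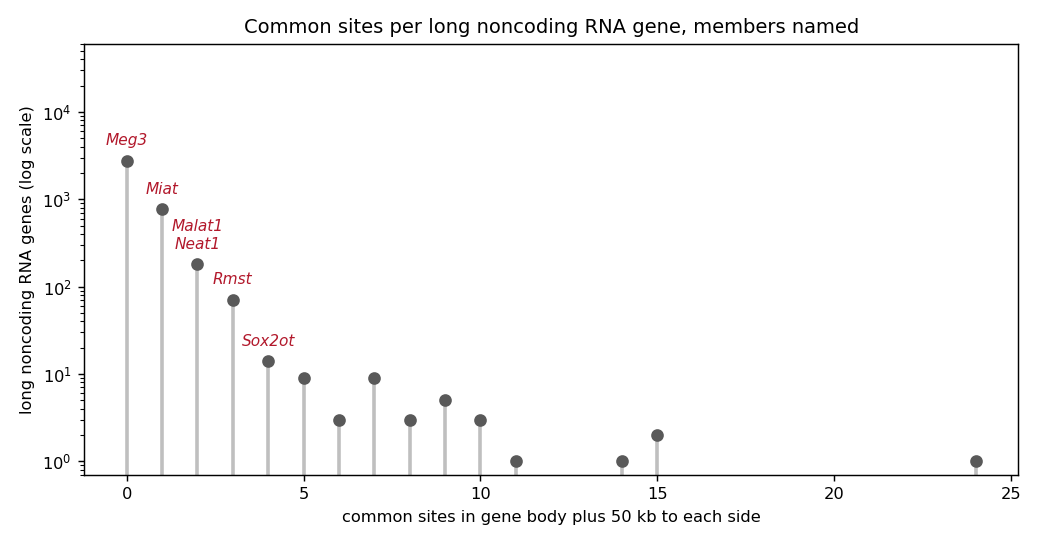
Number of long noncoding RNA genes (y axis, log scale) by the number of common sites in the gene body and 50 kb to each side (x axis), with the 6 genes named at their number. Most genes have 0, as Meg3 does, and 51 of 3845 have the 4 of Sox2ot or more.

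Counts were also read per length of window. The density of common sites was 1.87 per 100 kb for Malat1, 1.66 for Neat1, 1.64 for Rmst, 0.864 for Miat, 0.59 for Sox2ot and 0 for Meg3. It was 0.371 over the windows of all long noncoding RNA genes and 0.209 over the genome. The density of Neat1 came from the 2 Malat1 sites alone, and with margins of 10 kb Neat1 had 0 sites. Per length, Sox2ot thus fell below Malat1, although it had the most sites. The order of Sox2ot against Rmst depends on the narrow sites beyond the Rmst 3′ end, and that against Miat on the Miat site. With a p-value of 1e-10 or less required, the density was 0.545 for Rmst, 0 for Miat and 0.59 for Sox2ot. Without replicate 1 it was 4.67 for Malat1 and 4.97 for Neat1. At least 2 common sites were present for 7.83% of long noncoding RNA genes, at least 3 for 3.15% and at least 4 for 1.33%.

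Over the whole sites, the shares with SOX words were below those of all common sites. At a fixed width of 200 bp, those with ACAAWR and AACAAW were above. The lower shares rest in part on Rmst sites 1 and 2, which share their peaks of replicates 1 and 3 and are not independent. They are 53 and 82 bp wide and held none of the words, but at 200 bp both held ACAAWR and AACAAW. ACAAWR was present in 6 of 10 sites and in 74.4% of all common sites. AACAAW was present in 3 of 10 (30%, 95% Wilson interval 10.8 to 60.3%) and in 53% of all common sites, a share within that interval. It was present in 9 of 20 windows of the same widths 2000 bp to either side (45%). GACAAW was present in 3 of 10 sites and in 38.5% of all. When every site was set to 200 bp around its middle, ACAAWR was present at 8 of 10, against 72.8% of all common sites, AACAAW at 5 of 10, against 48.5%, and GACAAW at 2 of 10, against 34%. In the windows of that width to either side, ACAAWR was present in 14 of 20 (70%), AACAAW in 5 of 20 (25%) and GACAAW in 4 of 20 (20%). The octamer ATGCWAAT was in none of the 10 sites and in 9.84% of all, and the SOX/POU composite word in none and in 6.47%. These exact words do not count the octamer-like ATGCATAT of Sox2ot site 2, which lies 1 base from its CATTGT. With 10 sites, differences in share of this size were not detectable. The intervals cover counting error only and take the sites as independent.

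Of 49 other long noncoding RNA genes listed for their known roles in imprinting, growth or the nervous system, 24 were found by name in the annotation, and 12 of these (50%) had a common site in the window, against 27.8% of all long noncoding RNA genes. Xist and Tsix, which overlap on opposite strands, were counted for the same site. Length affects this comparison too, since Pvt1, Pax6os1 and Airn are longer than 100 kb. For Snhg4 and Snhg12 the closest site was 45757.5 and 38674 bp from a start. The most sites were in the windows of Pax6os1, an antisense gene beside Pax6, with 4, and of Nespas and Snhg1, with 3 each. The site closest to a Pax6os1 start was 19743 bp from it and lay within Pax6. A common site within 2000 bp of a start was present for 4 of the 24 (16.7%), against 3.56% of all. Gas5, a host gene of small nucleolar RNAs, had one 62.5 bp from its start, which was also 155.5 bp from the start of the protein-coding Zbtb37, with scores of 146.31, 80.57 and 170.22. The site of Snhg1, another such host gene, was 124 bp from its start but 3 bp from that of the protein-coding Slc3a2, with scores of 194.05, 74.16 and 113.22. The site of Snhg5 was 353.5 bp from its start and scored 107.02, 69.48 and 169.79. The site of Dlx6os1, a transcript of the Dlx5-Dlx6 region, was 1920 bp from its start and scored 119.06, 91.59 and 162.4. In replicate 2 these 4 sites scored below Malat1 site 1 (124.33) and Rmst site 3 (131.34), as they did in replicate 3 (222.53 and 214.01). In replicate 1 all 4 scored above Rmst site 3 (100.11), and that of Snhg1 above Malat1 site 1 (180.69). Among genes of NP cells, the windows of Nes, Sox2 and Pax6 held 4, 3 and 2 common sites, and that of Sox3 held 0.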

How the data were processed

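SOX3 ChIP-seq peaks of 3 biological replicates were used, and an input sample served the authors as background. Per the labels and the study's methods, the authors aligned 50 bp single-end reads to mm9 with Bowtie 1.0.0 (submitters' processing notes) and called peaks for each replicate with MACS (bandwidth 300, p-value threshold 1e-05). The antibody was raised against human SOX3. The deposited score of each peak is 10 times the negative log10 of its MACS p-value, without normalization between replicates. The lists hold no read counts, so depth and its precision are unknown, and the input was not analysed here.

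Genes, transcripts and starts were taken from GENCODE vM1 on NCBIM37, the same assembly as mm9. Positions are counted from 1. Long noncoding RNA genes were those of the annotation's noncoding biotypes lincRNA and processed transcript. Distances run from the middle of a site to the nearest annotated start. Common sites needed an overlap of 1 bp. Words were exact matches on either strand, sought in each site and 2000 bp to each side of it. A peak was mostly multi-copy when over 50% of its 50-base sequences occurred in more than 1 place. No test was run, since there was 1 condition. The 6 genes and the lists of other genes and words were chosen with earlier results of these data known. All common sites were reported, and regions of 1 or 2 replicates singly when in a gene body or within 2000 bp of a start, up to 5 a gene by rank. A Miat region outside this rule was added after its values were seen. Alternatives were a stricter threshold, equal numbers of peaks, other overlap rules, each replicate left out, other margins and removal of multi-copy peaks. The procedure was tested on simulated data. The tools were pysam 0.24.0, numba 0.67.0, scipy 1.17.1, numpy 2.4.6 and matplotlib 3.10.9 in Python 3.11.15.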

Additional observations from a re-analysis of the deposited data

How the results depend on the processing

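The number of common sites in the windows of the 6 genes was 10 and changed to 6 when only gene bodies were used, where 3 genes kept one (Rmst, Sox2ot and Malat1). It was 7 with a p-value of 1e-10 or less, 8 with 50% reciprocal overlap, 9 with midpoints within 300 bp, 10 with equal numbers of peaks, with margins of 10 kb or without multi-copy peaks, and 15 with margins of 100 kb. With 1 replicate left out it was between 10 and 15. Without replicate 1, the Neat1 window held 6 sites and the Malat1 window 5, in place of 2 each. Without replicate 2, Sox2ot had 6, Miat 2, and Malat1 and Neat1 4 each. The number of genes with a site was 4 with a p-value of 1e-10 or less (without Miat) and with margins of 10 kb (without Neat1), and 5 with the other changes outside the gene body. Meg3 had 0 throughout. The share of all long noncoding RNA genes with a site, 27.8%, changed to 15.7% at the stricter threshold, 22.2% with equal numbers of peaks, 26% with reciprocal overlap, 5.51% for gene bodies, 11.1% with 10 kb and 42.5% with 100 kb, and was between 28.3 and 37% with 1 replicate left out. The share of sites with AACAAW was between 26.7 and 50% under all alternatives. No paired analysis was possible because the lists are of 1 condition and no test was run. The number of sites is small and depth is unknown, so a missing peak is not evidence that binding was absent.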
